A study of Mus musculus with 29 samples.

Results

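The colon of mice that had gone through 2 cycles of dextran sodium sulfate (DSS) was compared with the colon of untreated control mice. DSS is a polymer given in the drinking water that injures the colonic epithelium and causes colitis. Members were chosen by label: the 5 arrays labelled as 2 cycles, without additional recovery, and the 5 control arrays, which makes 10 of the 29 arrays of the series. Each array held RNA from the colon of 1 mouse, hybridised to an Affymetrix Mouse Gene 1.0 ST array. All mice were C57BL6J females with an age label of 6 weeks, which the methods give as the age at the start of the study. The control mice (A1, A2, A5, L1 and L2) received no DSS. The 2-cycles mice (D4, D5, E2, E3 and E4) received DSS for 7 days and normal drinking water for 2 weeks, and then the same once more. According to the methods of the study the first exposure used a lower dose than the later one, and all mice were age matched at sacrifice. The 5 mice after 1 cycle and the 5 after 3 cycles serve here only as neighbours of the 2-cycles group. One limit of the tissue is that the piece taken was the most infiltrated part of the distal colon, so the sampling itself followed the inflammation.

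The wall of the distal colon is lined by absorptive colonocytes, goblet cells that secrete mucus and a few enteroendocrine cells, all renewed from crypt stem cells. Beneath lie plasma cells, which release IgA, and T cells, macrophages and lymphoid follicles rich in B cells. After DSS injury the epithelium makes antimicrobial proteins such as the Reg3 lectins, while interferon-gamma from lymphocytes induces chemokines and antigen presentation on MHC class II. Repeated injury is known to leave lymphoid aggregates and collagen in the wall, which is why the cycles serve as a model of chronic colitis and fibrosis.

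The values were log2 expression values, so that a difference of 1 is a 2-fold change, and the 10 arrays correlated with each other at 0.968 to 0.992 over all probe sets. Absorptive, goblet and muscle markers of the labelled tissue were bright in every mouse: Car1 lay between 12.07 and 13.09, Muc2 between 12.64 and 13.42 and Des between 11.31 and 12.18. The position marker Hoxb13 lay between 9.25 and 10.29. Of 11 markers of other tissue, the squamous keratin Krt5 lay between 5.48 and 5.91 and the pancreatic Prss2 between 5.23 and 5.61, below the lowest array median of 6.03. The keratin Krt14 lay above it, between 6.27 and 7.29, as did the skeletal muscle genes Ckm (6.94 to 7.97) and Acta1 (7.22 to 7.80) and the adipose gene Plin1 (6.07 to 7.20). Adipoq reached 6.96 in control mice and 5.70 in 2-cycles mice. One division of the arrays, which no label explains, runs through the 2-cycles mice. It rests on 1 probe set with no gene listed, picked for the widest gap with at least 10 arrays on each side. Whether its origin is technical or biological is not known. This probe set splits the 29 arrays into a low set of 14 (at most 8.14) and a high set of 15 (at least 11.09). All 5 control mice, D4 and D5 are in the low set, while E2, E3 and E4 are in the high set. The effect of the set cannot be told apart from that of the title letter among the 2-cycles mice, so counts are also given with the set as a covariate and within the low set, where only D4 and D5 stand against the 5 controls.

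Which genes differed between the 2-cycles colon and the control colon was tested over all 35511 probe sets in 1 limma fit. The fit held all 6 groups of the series, so each SE rests on a spread that all of them share. A probe set was called where its adjusted p lay below 0.05 and its change exceeded 2-fold. In the 2-cycles mice 322 probe sets were higher (0.907% of those tested) and 44 were lower (0.124%). Of the 322, 313 showed no overlap between the 5 control and the 5 2-cycles mice, and so did 37 of the 44. All were called on the same arrays, so such separation largely follows from the call. The share without overlap among all probe sets was not counted. With 1 probe set for each of 19938 genes, 213 genes were called higher (1.07%) and 30 lower (0.150%). At the adjusted p alone, without the fold threshold, 769 genes were higher (3.86%) and 701 lower (3.52%). The large changes were thus mostly rises, while the small ones ran both ways. With the array set as a covariate the calls numbered 216 probe sets higher and 12 lower, and within the low set 125 and 22. Leaving out 1 array at a time gave 22 to 59 lower, the 22 without E2.

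Of the 213 genes called higher, 83 were members of the 39 gene lists described below and 130 of none. Of the 30 called lower, 5 were members and 25 were not. MHC class II presentation (median log2 fold change 1.68 over 11 members), B cells (1.41 over 19) and epithelial antimicrobial defence (1.23 over 23) had the highest medians, against -0.0054 over all genes. Xenobiotic metabolism (-0.41 over 29) and enteroendocrine cells (-0.35 over 15) had the lowest. With the array set as a covariate the xenobiotic median was -0.14, above those of proliferation (-0.27) and of enteric neurons and glia (-0.26), so that this order did not hold there.

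**Figure D1:**
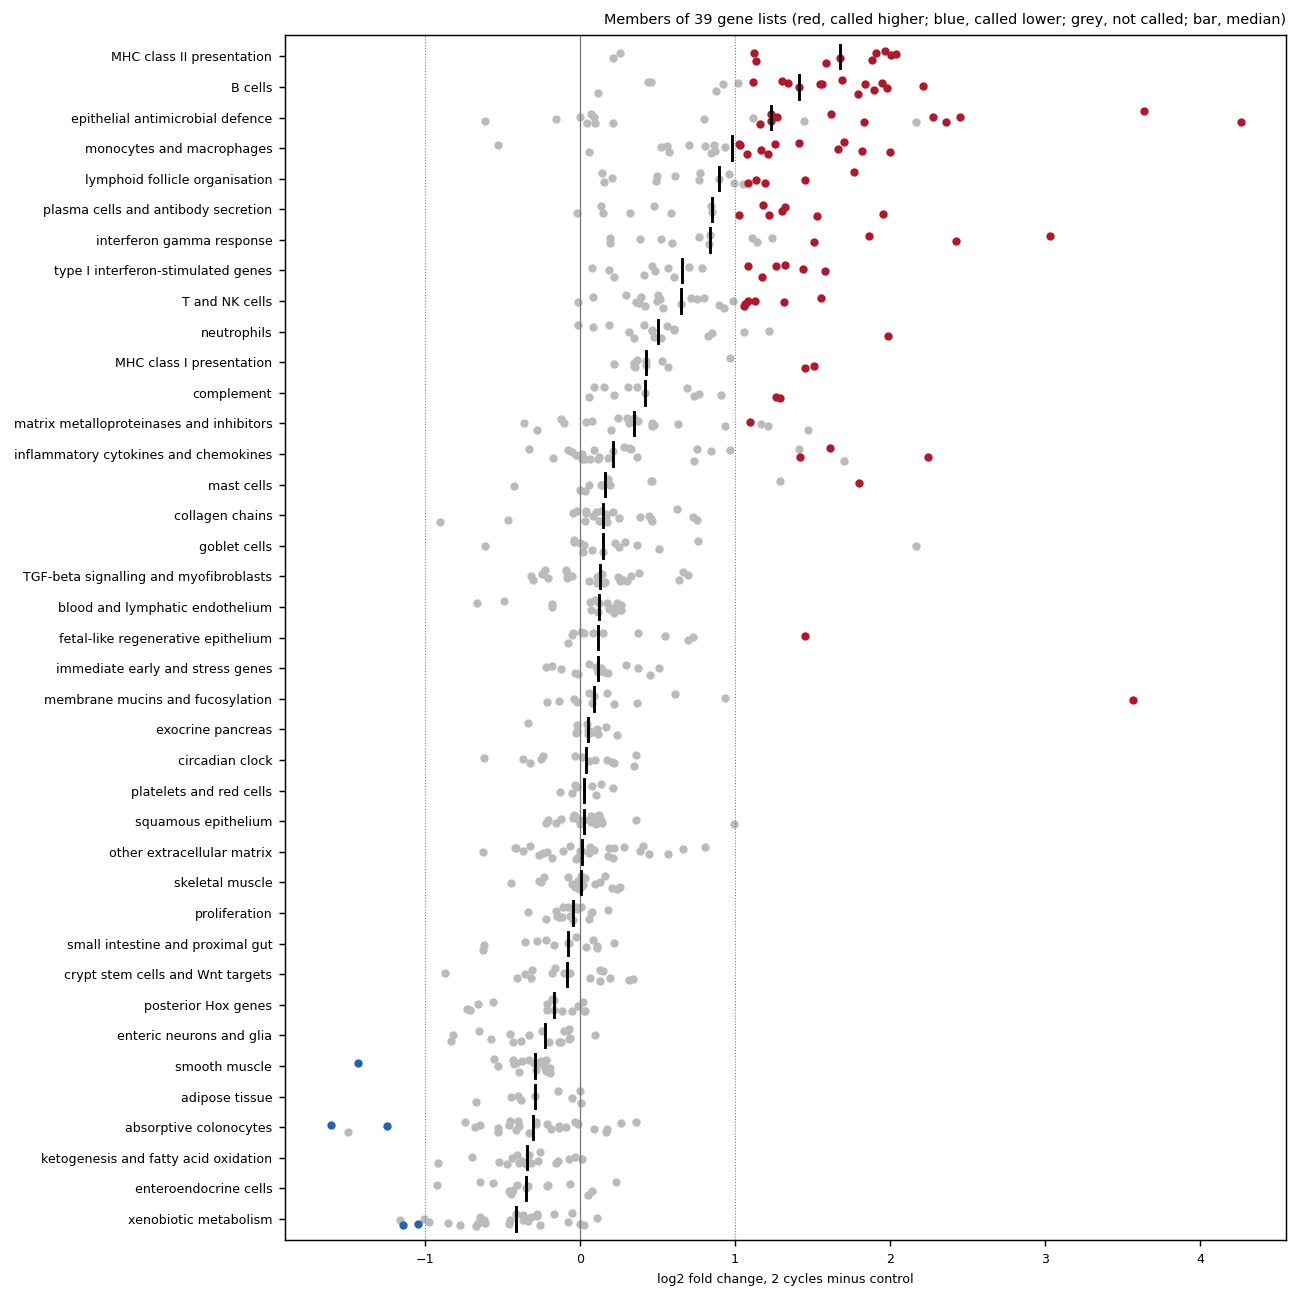
Log2 fold change (2 cycles minus control, x axis) of every measured member of the 39 gene lists (y axis, ordered by the median, black bar). Red points are called higher, blue points called lower and grey points not called, and dotted lines mark a 2-fold change. The red points lie mostly in the immune and antimicrobial lists, with 1 each in metalloproteinases, fetal-like epithelium and membrane mucins, and only 5 members lie in blue, in smooth muscle, absorptive colonocytes and xenobiotic metabolism.

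The 3 largest rises outside the immunoglobulin chains belonged to the epithelium. Reg3g and Reg3b encode secreted lectins that bind and kill bacteria at the mucosal surface. Values are listed in the order A1, A2, A5, L1, L2 for control mice and D4, D5, E2, E3, E4 for 2-cycles mice. Reg3g measured 3.45, 5.25, 4.30, 4.43 and 4.38 in the control mice and 8.82, 7.95, 8.65, 9.89 and 7.82 in the 2-cycles mice. Its lowest 2-cycles mouse, E4, lay far above its highest control, A2, and the rise was 4.26 ± 0.73 on the log2 scale (SE, 5 against 5 mice, adjusted p = 0.000672), or 19.2-fold. Reg3b measured 4.41, 4.91, 4.74, 4.55 and 4.46 in control mice against 8.10, 8.22, 7.78, 9.73 and 7.43. Mouse E3 was the highest for both lectins, and Reg3b rose by 3.64 ± 0.79 (adjusted p = 0.00546), or 12.4-fold.

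The promoters of the pair are shown because these related genes had the largest rises. The sequences are the 160 bases before the gene start in RefSeq (GRCm38.p6), Reg3b at chr6:78370725-78370884 on the plus strand and Reg3g at chr6:78468875-78469034 on the minus strand. Capitals mark matches to the GAS motif TTCNNNGAA, the site form that STAT factors bind, and to TATAAA.
Reg3b: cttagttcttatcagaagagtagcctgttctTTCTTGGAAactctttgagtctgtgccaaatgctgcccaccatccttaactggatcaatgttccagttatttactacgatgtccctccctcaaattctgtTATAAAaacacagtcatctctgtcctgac
Reg3g: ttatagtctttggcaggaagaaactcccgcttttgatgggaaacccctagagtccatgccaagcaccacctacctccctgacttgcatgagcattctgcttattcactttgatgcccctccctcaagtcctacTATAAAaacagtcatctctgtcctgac
Both held TATAAA, 29 bases before the start in Reg3b and 27 in Reg3g. Searched on both strands over 250 bases before the start, TATAAA occurred in 12.4% of 32851 RefSeq promoters and the GAS motif in 7.02%. Among the 145 genes called higher with a sequence, 22.1% held TATAAA and 11.0% the GAS motif, against 12.5% and 7.71% of the 15614 measured genes. Only Reg3b of the pair matched the GAS letters in this window.

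Other epithelial defence genes rose with them. Clca4b, of the calcium-activated chloride channel regulator family, measured 6.01, 6.94, 7.04, 7.01 and 6.46 in control mice and 11.32, 10.47, 10.69, 9.65 and 9.16 in 2-cycles mice. Here D4 was highest and E4 lowest, with no overlap, and the rise was 3.57 ± 0.52 (adjusted p = 0.000148). Wfdc18, a small protein with a whey acidic protein core, went from 6.38 ± 0.15 (SD, n = 5) to 8.83 ± 0.71, again highest in D4 at 10.04. Pla2g2a, a secreted phospholipase that acts on bacterial membranes, rose by 2.36 ± 0.29 (adjusted p = 1.67e-05). C57BL/6 mice are known to carry a frameshift in this gene, so its transcript does not stand for the enzyme. Nos2, the inducible nitric oxide synthase, measured 5.24 to 5.81 in control mice and 7.04 to 8.37 in 2-cycles mice, a rise of 2.28 ± 0.44 (adjusted p = 0.00219). Khdc1a, which belongs to none of the lists, rose by 2.90 ± 0.58 (adjusted p = 0.0026). Its call was lost with the array set as a covariate (2.41, adjusted p = 0.0683) and within D4 and D5 against controls (2.61, adjusted p = 0.0679).

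In all, 11 of 23 measured genes of epithelial antimicrobial defence were called higher and 0 lower. Among them were Duox2 (1.16) and its maturation factor Duoxa2 (1.62), which together make hydrogen peroxide, Nox1 (1.23), and the antiprotease Slpi (1.23). Other genes of secreted defence proteins did not all follow: log2 fold changes were -0.15 for Reg3a, 0.21 for Itln1 and -0.61 for Ang4, and Retnlb, at 2.17, was not called. The list's mean over members lay between 6.42 and 6.87 in control mice and between 7.81 and 8.17 in 2-cycles mice. Within D4 and D5 against controls 6 of the 23 were called, with a median of 1.24.

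**Figure D2:**
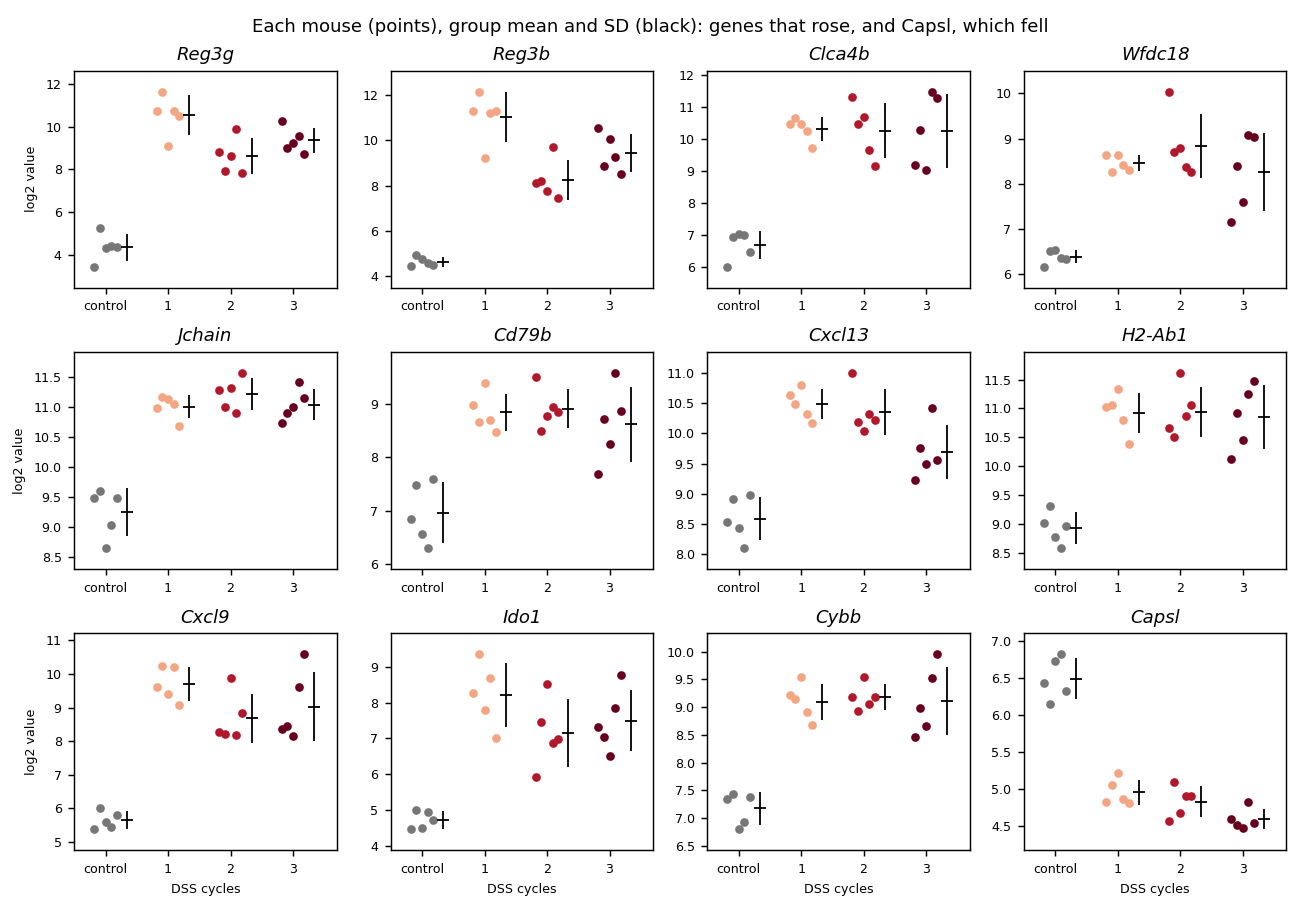
Log2 value (y axis) of 12 genes in each mouse (points) after 0, 1, 2 and 3 DSS cycles (x axis), with group mean and SD in black beside the points (n = 5 a group). In the 2-cycles mice Reg3g lies between 7.82 and 9.89 against 3.45 to 5.25 in control mice, while Capsl lies between 4.57 and 5.09 against 6.15 to 6.82.

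B cell and plasma cell genes rose in many members. In bulk tissue, more cells of a type and more RNA per cell cannot be told apart, which holds for every cell type list here. Ms4a1 encodes CD20, a surface protein of B cells, and measured 4.79, 5.73, 4.94, 4.67 and 5.53 in the control mice and 8.31, 7.04, 6.86, 7.29 and 7.22 in the 2-cycles mice. D4 stood above the other 2-cycles mice and no value overlapped (2.21 ± 0.46, adjusted p = 0.00417). Cd79b, a signalling chain of the B cell receptor, measured 6.85, 7.49, 6.56, 6.30 and 7.60 against 9.50, 8.49, 8.77, 8.94 and 8.84. It rose by 1.95 ± 0.36 (adjusted p = 0.00138), and its partner Cd79a by 1.98 ± 0.42 (adjusted p = 0.00453). Altogether 13 of 19 B cell genes were called higher and 0 lower, among them the complement receptor Cr2 (1.90), the transcription factors Ikzf3 (1.84) and Spib (1.41), and Cxcr5 (1.11), the receptor that guides B cells into follicles. Pax5 (0.88) and Blk (0.92) passed the adjusted p but not the fold threshold, and Ebf1 (0.46) passed neither.

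D4 was the highest of the 5 2-cycles mice for 18 of the 19 B cell genes. The list mean was 7.74 in D4 and 6.89 to 7.25 in the other 4, while the control mice spanned 5.51 to 6.23. Only 8 of the 19 were called with the array set as a covariate and 8 within D4 and D5, where the median was 1.57.

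Plasma cell genes rose as well. Jchain, the chain that joins IgA into dimers for export, measured 9.49, 9.60, 8.65, 9.04 and 9.49 in control mice and 11.27, 11.00, 11.31, 10.89 and 11.56 in 2-cycles mice. Even its lowest 2-cycles mouse, E3, was above its highest control, A2, and the rise was 1.96 ± 0.22 (adjusted p = 7.46e-06). Derl3, which clears misfolded protein from the endoplasmic reticulum, rose by 1.53 ± 0.17 (adjusted p = 6.4e-06) and Irf4, a plasma cell transcription factor, by 1.32 ± 0.15 (adjusted p = 4.47e-06). Mzb1 (1.31), Slamf7 (1.22), Pou2af1 (1.18) and Prdm1 (1.03) completed the 7 of 15 called members. Pigr, the epithelial receptor that carries IgA into the lumen, was at -0.02 and Sdc1 at 0.14.

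Of 31 probe sets annotated to immunoglobulin chains, 28 were called higher and 0 lower, with a median of 2.30. The 2 probe sets of Igha, the constant region of IgA, differed by 3.03 ± 0.37 and 3.08 ± 0.34 (adjusted p = 1.84e-05 and 4.88e-06). The first measured 9.35, 7.93, 7.96, 7.94 and 8.03 in control mice, with A1 above the rest, and 11.39, 10.97, 11.42, 11.13 and 11.43 in 2-cycles mice. Probe sets annotated to Ighm, of the IgM class, were called higher at 1.93 ± 0.21 and 2.60 ± 0.45 (adjusted p = 4.28e-06 and 0.000683). Another Ighm probe set was not called (1.58 ± 0.48, adjusted p = 0.0534). Ighg3, of the IgG3 class, ranged from 5.05 to 7.78 in control mice and from 7.01 to 8.65 in 2-cycles mice. The groups thus overlapped and Ighg3 was not called (1.49 ± 0.51, adjusted p = 0.0924). The variable segments of the kappa chain differed from mouse to mouse: Igkv4-91 was highest in D5 at 11.32, and 1 of the 2 probe sets of Igkv19-93 in D4 at 11.05, while the other was highest in E3 at 7.78 and not called. Near-identical segments can share probes, so single segments are uncertain. One probe set annotated to Adck1, a mitochondrial kinase, rose by 2.70 ± 0.41 (adjusted p = 0.000215) while a second probe set of that gene was at 0.05. The rise can therefore not be assigned to Adck1, and which transcript the first probe set measures was not tested.

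Genes that organise lymphoid follicles rose beside the B cell genes. Cxcl13, the chemokine that draws B cells into follicles, measured 8.53, 8.91, 8.44, 8.10 and 8.97 in control mice and 11.00, 10.20, 10.04, 10.32 and 10.22 in 2-cycles mice. D4 was again highest, and the rise was 1.77 ± 0.33 (adjusted p = 0.00152), or 3.40-fold. Clu, made by follicular dendritic cells and by regenerating epithelium, was 10.32 in D4 and 8.61 to 9.01 in the other 2-cycles mice, against 7.16 to 8.08 in control mice (1.45 ± 0.31, adjusted p = 0.00476). Ccl19, a chemokine of the T cell zone with 5 probe sets between 1.06 and 1.27 and near-identical gene copies, rose by 1.19 ± 0.28 (adjusted p = 0.00861) in the brightest of them, Vcam1 by 1.13 and Ccr6 by 1.09. These 5 of 17 members were called higher and 0 lower, and D4 was the highest 2-cycles mouse for 15 of the 17. Lymphotoxin itself did not reach the threshold: Ltb was at 1.00 with an adjusted p under the threshold and Lta at 0.16. With the set as a covariate 3 of the 17 were called (median 0.86), and 1 within D4 and D5 (median 0.94).

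MHC class II presentation had the highest median of the 39 lists, although B cells exceeded it within D4 and D5 (1.57 against 1.45) and with the set as a covariate. Class II molecules show peptides to CD4 T cells and are made by B cells, macrophages and dendritic cells, and by epithelium exposed to interferon-gamma. H2-Ab1 measured 9.02, 9.32, 8.77, 8.58 and 8.96 in control mice and 10.66, 10.51, 11.61, 10.86 and 11.05 in 2-cycles mice. Here E2, and not D4, was highest, and the rise was 2.01 ± 0.28 (adjusted p = 9.63e-05). H2-Eb2 rose by 2.04 ± 0.36 (adjusted p = 0.000843) and H2-Ob, a chain of the peptide-loading regulator of B cells, by 1.97 ± 0.37 (adjusted p = 0.00175). Together 9 of 11 members were called higher and 0 lower, including H2-Aa (1.91), Cd74 (1.88), H2-Eb1 (1.68), H2-DMa (1.59), H2-Oa (1.12) and Ciita (1.14), the coactivator of the class II genes. The proteases Ctss (0.21) and Ifi30 (0.26) were not. With the set as a covariate 8 of the 11 were called higher, and within D4 and D5 7 were.

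Class II promoters are known to share an X box and a Y box, which hold the platform that CIITA binds, and 5 of the called members carry both in the RefSeq windows. They are printed to show what these called members, with rises between 1.12 and 2.04, have in common upstream. The stretches lie at chr17:34305764-34305824 for H2-Eb1, chr17:34325531-34325591 for H2-Eb2, chr17:34238806-34238864 for H2-Ob and chr17:34092291-34092352 for H2-Oa on the plus strand, and at chr17:34287855-34287916 for H2-Aa on the minus strand (GRCm38.p6). Capitals mark the core of the X box, searched as GNAAC, and the Y box, searched as TGATTGG.
H2-Eb1: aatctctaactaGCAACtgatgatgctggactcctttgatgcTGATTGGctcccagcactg
H2-Eb2: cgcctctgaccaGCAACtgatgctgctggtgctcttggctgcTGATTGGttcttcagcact
H2-Aa: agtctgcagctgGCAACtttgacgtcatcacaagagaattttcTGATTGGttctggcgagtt
H2-Ob: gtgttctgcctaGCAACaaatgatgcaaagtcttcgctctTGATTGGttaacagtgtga
H2-Oa: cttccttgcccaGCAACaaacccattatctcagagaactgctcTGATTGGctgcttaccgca
The arrangement of GNAAC followed after 10 to 40 bases by TGATTGG on the same strand occurred in 0.715% of the 32851 promoters, on either strand, and in 5 of the 8 list members with a sequence. It occurred in 6 of the 145 genes called higher that have a sequence (4.14%), 5 of them those printed, in 2 of the 24 called lower (8.33%) and in 0.973% of measured genes. The windows of H2-DMa, Ctss and Ifi30 did not hold it.

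Interferon-gamma targets held some of the steepest single rises. Cxcl9, a chemokine that draws activated T cells, measured 5.37, 6.02, 5.59, 5.44 and 5.79 in control mice and 8.26, 8.20, 9.89, 8.17 and 8.85 in 2-cycles mice. Every 2-cycles mouse was over 2 units above every control, with E2 highest (3.03 ± 0.49, adjusted p = 0.000379). Ido1, which breaks down tryptophan, measured 4.46, 4.99, 4.51, 4.95 and 4.72 against 5.93, 7.45, 8.51, 6.88 and 6.97. The spread in 2-cycles mice was wide, from D4 to E2, and the rise was 2.43 ± 0.48 (adjusted p = 0.00239). Iigp1, a GTPase against intracellular microbes, rose by 1.86 ± 0.44 (adjusted p = 0.00944) and Zbp1, a nucleic acid sensor, by 1.51. These were the 4 of 15 members called higher, with 0 lower, and 7 were called in a fit of both groups alone. Cxcl10 (1.24), Gbp5 (1.15) and Gbp3 (1.11) were not called, and Ifng itself was at 0.19. E2 was the highest 2-cycles mouse for all 15 members. With the set as a covariate 2 of the 15 were called and within D4 and D5 none, at medians of 0.85 and 0.75 against 0.84.

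Type I interferon-stimulated genes and class I presentation followed the same mouse. Oasl2 rose by 1.58 ± 0.28 (adjusted p = 0.000887) and Oas2, an enzyme that senses double-stranded RNA, by 1.44 ± 0.22 (adjusted p = 0.00018). Ifit1 measured 6.07 to 7.36 in control mice and 7.24 to 8.65 in 2-cycles mice, so that the groups overlapped, and its call (1.32 ± 0.33, adjusted p = 0.0138) was lost without A1 (adjusted p = 0.0513) or without E2 (adjusted p = 0.0583). In all, 6 of 16 members were called higher and 0 lower, 2 with the set as a covariate and 0 within D4 and D5. E2 was highest for 11 of the 16, while D4 was lowest for 10.

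Of 12 class I presentation genes 2 were called higher. Psmb8, a subunit of the immunoproteasome, measured 6.15 to 6.48 in control mice and 7.40, 7.83, 8.57, 7.45 and 7.74 in 2-cycles mice (1.51 ± 0.27, adjusted p = 0.000903). Tap1, which pumps peptides into the endoplasmic reticulum, rose by 1.45 ± 0.30 (adjusted p = 0.00353). B2m (0.36), Psmb9 (0.97) and Psmb10 (0.57) passed the adjusted p without the fold threshold. The promoter of Psmb8 is shown as one of the 16 promoters of called genes with the GAS letters, in capitals, at chr17:34198035-34198194 on the plus strand.
Psmb8: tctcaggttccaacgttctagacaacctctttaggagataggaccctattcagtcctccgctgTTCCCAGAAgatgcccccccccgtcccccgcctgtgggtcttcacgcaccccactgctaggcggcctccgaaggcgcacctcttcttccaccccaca
The ISRE letters, searched on both strands as GAAA, any 2 bases and GAAA again, occurred in 2.98% of all promoters, in 3.40% of measured genes and in 11.7% of the 145 genes called higher. With the set as a covariate 1 of the 12 class I genes was called and within D4 and D5 none.

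Several T cell genes rose. Cd4 measured 6.09, 6.23, 5.86, 5.86 and 6.13 in control mice and 7.30, 7.11, 7.42, 7.38 and 7.56 in 2-cycles mice, a rise of 1.32 ± 0.17 with tight groups (adjusted p = 4.02e-05). Cd3g, part of the T cell receptor complex, rose by 1.56 ± 0.25 (adjusted p = 0.000326). Ccl5 was called (1.13 ± 0.32, adjusted p = 0.0316), but lost its call without any one of A1, A5, L1, L2, E2 or E4 (adjusted p 0.0586 to 0.113). Of 25 T and NK cell genes 6 were called higher and 0 lower, and 18 were higher at the adjusted p alone, among them Cd8a (0.39) and Cd8b1 (0.52). Il17a was at -0.01 and Foxp3 at 0.36. The list median was 0.65, with 3 members called with the set as a covariate and 2 within D4 and D5.

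Macrophage genes were high in all 5 2-cycles mice. Cybb, the core of the phagocyte oxidase, measured 7.34, 7.43, 6.80, 6.93 and 7.38 in control mice and 9.17, 8.93, 9.55, 9.06 and 9.18 in 2-cycles mice (2.00 ± 0.38, adjusted p = 0.00167). Laptm5, a lysosomal protein of leukocytes, rose by 1.82 ± 0.30 (adjusted p = 0.000382) and Lyz2, the lysozyme of phagocytes, by 1.70 ± 0.30 (adjusted p = 0.000847). Of 22 members 11 were called higher, including Fcgr4 (1.66), Fcer1g (1.41), C1qb (1.26) and Cd68 (1.03). Markers of resident macrophages differed: Cd163 was lower by 0.52 at the adjusted p alone, and Mrc1 was at 0.06. E2 was highest for 19 of the 22, and the list mean spanned 6.37 to 6.74 in control mice and 7.39 to 7.83 in 2-cycles mice. Calls numbered 6 with the set as a covariate and 1 within D4 and D5, with medians of 0.91 and 0.92 against 0.98.

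Of 18 neutrophil genes 1 was called (5.56%), Cd177, which measured 7.25, 9.14, 8.28, 8.91 and 8.75 in control mice and 10.26, 10.47, 11.00, 9.97 and 10.56 in 2-cycles mice (1.99 ± 0.31, adjusted p = 0.000294). The list as a whole lay higher, with a median of 0.50 and a mean over members of 5.35 to 5.48 in control mice and 5.87 to 6.27 in 2-cycles mice, and its median was 0.67 with the set as a covariate and 0.74 within D4 and D5. The granule genes Mpo (0.19), Elane (0.08), Camp (-0.01) and Ngp (0.46) were not called. S100a8 (0.61), S100a9 (1.06) and Cxcr2 (1.22) were not called. Fits of both groups alone and with array weights called 3 and 2 of the 18. Mcpt2, a protease of mucosal mast cells, measured 4.15 to 4.42 in control mice and 5.99, 5.01, 7.18, 5.24 and 7.16 in 2-cycles mice. Its call (1.80 ± 0.52, adjusted p = 0.0373) was lost without any one array other than D5 or E3 (adjusted p 0.0562 to 0.127). It was the only one of 12 mast cell genes called (8.33%), and Cpa3 (0.46), Kit (-0.43) and Cma1 (0.06) were not.

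Of 27 cytokines and chemokines 3 were called higher and 0 lower. Il1b measured 5.04, 5.18, 5.24, 5.18 and 5.26 in control mice and 7.55, 7.61, 7.50, 6.98 and 7.50 in 2-cycles mice, a rise of 2.25 ± 0.48 with narrow groups (adjusted p = 0.00514). The monocyte chemokine Ccl8 rose by 1.42 ± 0.25 (adjusted p = 0.001). Ccl3 was called (1.61 ± 0.43, adjusted p = 0.0226) but not without A5 (adjusted p = 0.0526) or E2 (adjusted p = 0.0908). Il6 was at 0.01, Il10 at 0.12, Tnf at 0.73 and Cxcl1 at -0.05, none of them called. A fit of both groups alone called 5 of the 27, and within D4 and D5 none were. Of 13 complement genes 2 were called, C4b (1.29 ± 0.22, adjusted p = 0.000801) and the C3a receptor C3ar1 (1.27 ± 0.18, adjusted p = 9.05e-05), and none within D4 and D5.

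The 5 2-cycles mice were alike in which lists were high but not in which was highest. In D4 the B cell and follicle lists were at their peak, at 7.74 and 7.69, as was the matrix metalloproteinase list at 7.23. E2 led the interferon-gamma list at 7.88, against 7.05 to 7.27 in the other 4, and class I presentation at 9.29 against 8.63 to 8.86. The type I interferon list was lowest in D4, at 6.84, close to the highest control, A2, at 6.74. D5 had the lowest mean of the 5 in B cell genes (6.89), follicle genes (7.10) and class II genes (8.83), and was lowest for 12 of 21 metalloproteinase genes.

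**Figure D3:**
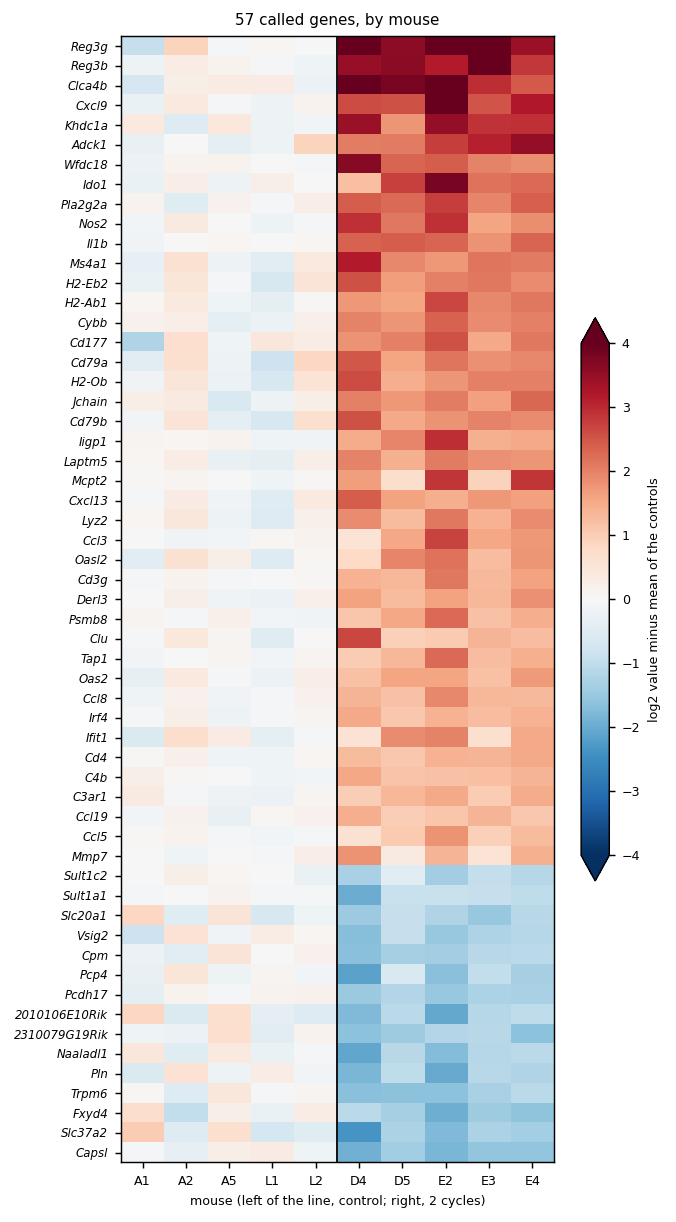
Log2 value minus the mean of the 5 control mice (colour, red above and blue below) for the 57 called genes named by rule (rows) in each of the 10 mice (columns). All 2-cycles columns share the sign of each row, with D4 strongest for Clu and Ms4a1 and E2 for Ido1, Iigp1 and Ccl3.

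The largest falls were smaller than the largest rises. Capsl, a calcium-binding protein, had the lowest adjusted p of the named genes: it measured 6.43, 6.15, 6.73, 6.82 and 6.32 in control mice and 4.57, 5.09, 4.67, 4.90 and 4.91 in 2-cycles mice. The gap between the groups was over 1 unit, and it fell by 1.66 ± 0.12 on the log2 scale (adjusted p = 5.74e-09) and by 1.66 within D4 and D5 as well. Trpm6, the channel through which the colon takes up magnesium, measured 9.52, 8.94, 9.90, 9.38 and 9.59 against 7.80, 7.83, 7.81, 8.18 and 8.40. It fell by 1.46 ± 0.27 (adjusted p = 0.0012), and Fxyd4, a subunit that tunes the sodium pump, fell by 1.48 ± 0.24 (adjusted p = 0.000351). Cpm, carboxypeptidase M, fell by 1.32 ± 0.21 (adjusted p = 0.000416), Naaladl1, a peptidase of the brush border, by 1.43 ± 0.27 (adjusted p = 0.00166) and Pcdh17, a protocadherin, by 1.34 ± 0.21 (adjusted p = 0.000237). 2 genes known by clone name, 2310079G19Rik and 2010106E10Rik, both fell by 1.40. Within D4 and D5 against controls Trpm6 (-1.65, adjusted p = 0.0564), Fxyd4 (-1.20, adjusted p = 0.104) and 2010106E10Rik (-1.41, adjusted p = 0.156) were not called. Cpm, Naaladl1, Pcdh17 and 2310079G19Rik kept their calls there (-1.60 to -1.32, adjusted p 0.0191 to 0.044).

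The calls of 4 falls were lost when single mice were left out, although the falls stayed of similar size. Slc37a2, a sugar phosphate transporter, measured 10.46, 8.93, 10.07, 8.74 and 8.96 in control mice and 7.08, 8.16, 7.66, 8.16 and 8.07 in 2-cycles mice. It fell by 1.61 ± 0.46 (adjusted p = 0.0352), and the call was lost without any one of A1, A5, D4, E2 or E4 (-1.67 to -1.35, adjusted p 0.0539 to 0.120). Pln, phospholamban of muscle, fell by 1.43 ± 0.41 (adjusted p = 0.0376), Pcp4, a calmodulin regulator, by 1.34 ± 0.37 (adjusted p = 0.028) and Vsig2 by 1.31 ± 0.33 (adjusted p = 0.0178). The call of Vsig2 was lost without any one of A2, L1, D4 or E2 (-1.25 to -1.16, adjusted p 0.0507 to 0.0530) and that of Pcp4 without these or E4 (-1.35 to -1.15, adjusted p 0.0530 to 0.0888). That of Pln was lost without any one array other than A1, D5 or E3 (-1.49 to -1.28, adjusted p 0.0564 to 0.114). With the set as a covariate all 4 had an adjusted p of 0.137 or above. There Slc37a2 was at -1.69, but the other falls were smaller, with Pln at -0.98, Pcp4 at -0.89 and Vsig2 at -0.88. Only the 2-cycles and acute colitis groups hold arrays of both sets, so the covariate rests on these. Within D4 and D5 against controls the falls did not shrink in this way. Slc37a2 was at -1.81, Pln at -1.41, Pcp4 at -1.37 and Vsig2 at -1.31, although none passed (adjusted p 0.0679 to 0.256).

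Absorptive colonocyte genes leaned downward without many calls. Of 28 members 2 were called lower, Slc37a2 and the phosphate transporter Slc20a1 (-1.24 ± 0.25, adjusted p = 0.00287), and 0 higher, at a median of -0.30. The chloride-bicarbonate exchanger Slc26a3 was at -0.68, carbonic anhydrase Car1 at -0.64 and the water channel Aqp8 at -0.45, none of them called. Sodium channel subunits ran both ways, Scnn1a at -0.39 and Scnn1b at 0.36. Neither of the 2 calls held with the set as a covariate, where the list median was -0.16, or within D4 and D5.

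Detoxifying and fatty acid oxidising genes lay lower in most members. Of 29 xenobiotic metabolism genes 2 were called lower, the sulfotransferases Sult1a1 and Sult1c2. Sult1a1 measured 9.30 to 9.49 in control mice and 7.38, 8.48, 8.46, 8.42 and 8.34 in 2-cycles mice, so that D4 stood apart below the other 4. Its call (-1.14 ± 0.35, adjusted p = 0.0497) was at the threshold and lost without any single array (adjusted p 0.0518 to 0.143). That of Sult1c2 (-1.04 ± 0.29, adjusted p = 0.0284) was lost without any one of A1, A2, A5, L1, D4, E2 or E4 (0.0557 to 0.0882). With the set as a covariate neither was called (-0.70 and -0.56, adjusted p 0.522 and 0.494) and the list median was -0.14. Within D4 and D5 the list median was -0.45 and 2 members were called. Sult1a1 was among them (adjusted p = 0.0099), but Sult1c2 was not (-0.87, adjusted p = 0.238). The mean of the xenobiotic list lay between 7.87 and 8.28 in 2-cycles mice and between 8.53 and 8.65 in control mice. Cyp2c55 (-1.16), Ces1d (-1.01) and Aldh1a1 (-0.97) were not called. Of 18 genes of ketogenesis and fatty acid oxidation none was called, but 7 were lower at the adjusted p alone, among them Ppargc1a (-0.91), a coactivator of mitochondrial genes, Acaa2 (-0.52) and Cpt1a (-0.37), the gate of fatty acids into mitochondria. D4 was the lowest 2-cycles mouse for 15 of these 18, and the list median of -0.34 was -0.22 with the set as a covariate.

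In other epithelial lineages few genes were called. Muc2, the mucin of goblet cells, measured 12.64, 13.42, 13.19, 13.35 and 13.34 in control mice and 13.13, 13.25, 13.29, 13.29 and 13.39 in 2-cycles mice. The 2-cycles mice lay within the range of the controls (0.08 ± 0.14, adjusted p = 0.815), and the groups also overlapped for Agr2 (0.03 ± 0.12, adjusted p = 0.933). None of 15 goblet cell genes was called, with Tff3 (0.51) and Spink4 (0.76) higher at the adjusted p alone. Of 13 membrane mucin and fucosylation genes only Clca4b was called.

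None of 15 enteroendocrine genes was called either. Cpe (-0.92), Scg3 (-0.64) and Chga (-0.56), all parts of secretory granules, were lower at the adjusted p alone. The hormones Insl5 (-0.35 ± 0.33, adjusted p = 0.628) and Pyy (0.23 ± 0.20, adjusted p = 0.598) did not pass. Stem cell and Wnt target genes held 0 calls of 17, with Axin2 (-0.40), Tnfrsf19 (-0.35) and Znrf3 (-0.31) lower at the adjusted p alone and Lgr5 at -0.87 not past it. Sox9 was at -0.08 ± 0.13 and Prom1 at 0.34 ± 0.27. None of 19 proliferation genes passed even the adjusted p, the extremes being Kif11 (-0.33) and Mcm3 (0.18), with Mki67 at -0.22 ± 0.15 and Pcna at -0.08 ± 0.10. The list median was -0.04, but -0.27 with the set as a covariate, where Mki67 was at -0.42, and -0.15 within D4 and D5. Of 12 genes of the fetal-like regenerative state 1 was called, Clu, which is also in the follicle list.

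The study stained connective tissue proteins, so their genes were examined in each mouse. Col1a1, the main fibrillar collagen chain, measured 8.82, 9.30, 9.14, 9.07 and 9.18 in control mice and 9.92, 9.58, 9.78, 9.64 and 9.73 in 2-cycles mice. All 5 2-cycles mice lay above all controls, but the difference of 0.63 ± 0.11 (adjusted p = 0.000953) is 1.55-fold and below the fold threshold. Col1a2, its partner chain, differed by 0.46 ± 0.09 (adjusted p = 0.00168). With the set as a covariate Col1a1 was at 0.58 and Col1a2 at 0.42 (adjusted p 0.0231 and 0.0338). Within D4 and D5 against controls the 2 genes were at 0.65 and 0.49, and neither passed (adjusted p 0.083 and 0.108). Col3a1 lay between 8.70 and 8.91 in control mice and between 8.97 and 9.05 in 2-cycles mice, again without overlap. Its difference was 0.25 ± 0.10 with an adjusted p of 0.170. That SE uses the spread shared by all 6 groups, while the SD of Col3a1 was 0.09 in control mice and 0.04 in 2-cycles mice. Tnc, which encodes tenascin C, overlapped between the groups (8.97, 9.50, 9.13, 9.51 and 9.39 against 9.54, 9.27, 9.30, 9.07 and 9.26, difference -0.01 ± 0.17, adjusted p = 0.984). Acta2, smooth muscle actin, was at -0.24 ± 0.09 (adjusted p = 0.132) and Vim, vimentin, at 0.06 ± 0.14 (adjusted p = 0.874).

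Across 24 collagen chains none was called, 7 were higher at the adjusted p alone and 1 lower. The 7 included the basement membrane chains Col4a1 (0.46), Col4a2 (0.45) and Col18a1 (0.73), and the 1 was Col8a1 (-0.90). The list mean spanned 7.19 to 7.44 in control mice and 7.42 to 7.53 in 2-cycles mice. Of 29 other matrix genes none was called, with Fn1 (0.45), Sparc (0.41 ± 0.11, adjusted p = 0.0225), Bgn (0.39), Tgfbi (0.57) and Mfap4 (0.67) higher and Sparcl1 (-0.62) lower at the adjusted p alone. With the set as a covariate Sparc was at 0.39 and did not pass (adjusted p = 0.148). Dcn, the abundant proteoglycan decorin, was at 0.00 ± 0.18.

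Of 21 metalloproteinases and inhibitors 1 was called, Mmp7, at 1.10 ± 0.29 (adjusted p = 0.0206), and its call was lost without D4, E2 or E4 (adjusted p 0.0591 to 0.0731). Mmp7 was also not called with the set as a covariate (1.09, adjusted p = 0.123) or within D4 and D5 (1.07, adjusted p = 0.147). Mmp13 (1.47), Mmp3 (1.21), Mmp10 (1.17) and Timp1 (0.94) were not called. Fits of both groups alone, with array weights, with the letter as a block or without dim probe sets each called 3 of the 21. Among 25 genes of TGF-beta signalling and myofibroblasts none was called, with Tgfb1 (0.70), Tgfbr1 (0.33), Tgfbr2 (0.30) and Pdgfb (0.28) higher at the adjusted p alone.

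**Figure D4:**
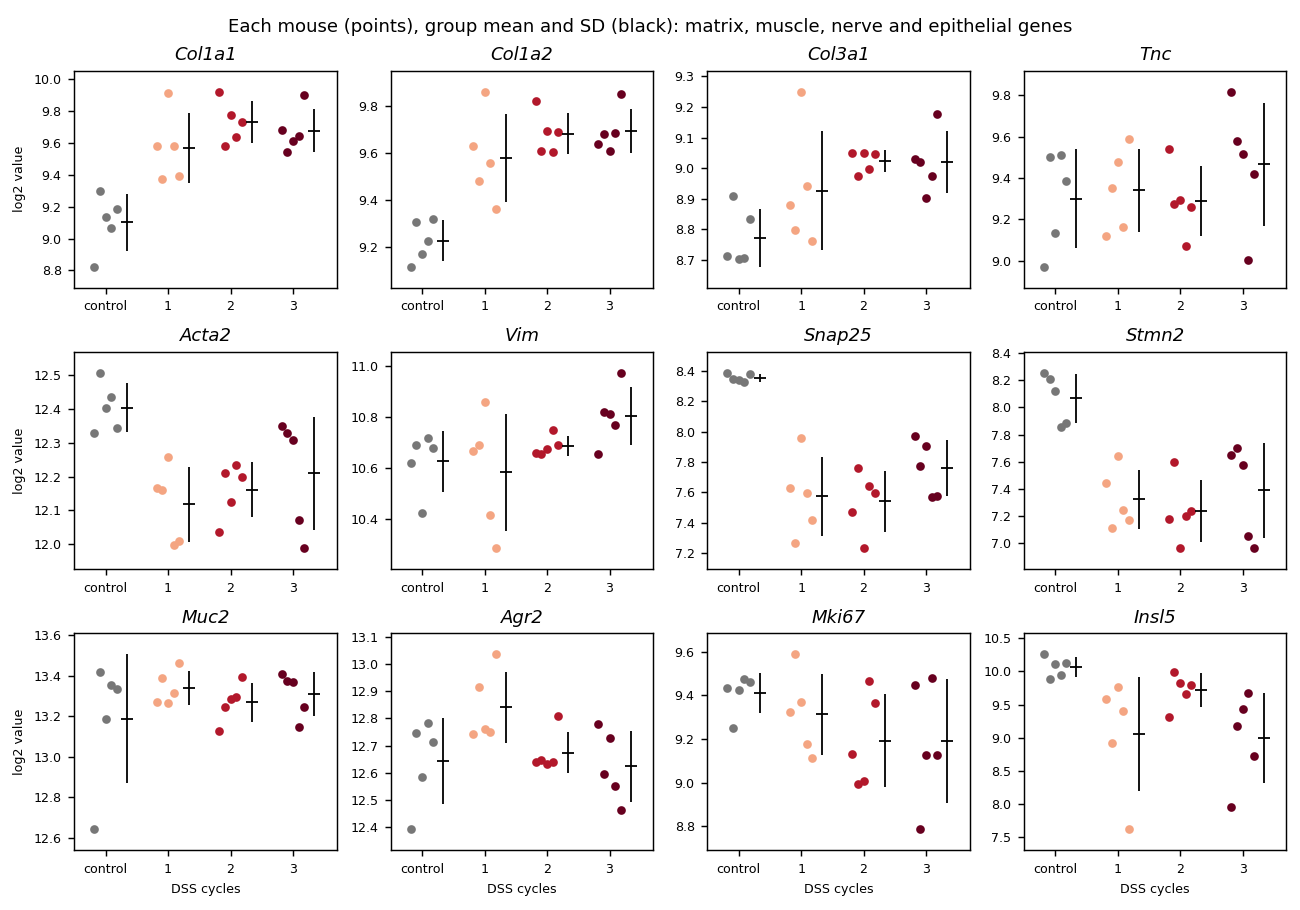
Log2 value (y axis) of 12 matrix, muscle, nerve and epithelial genes in each mouse (points) after 0, 1, 2 and 3 DSS cycles (x axis), with group mean and SD in black (n = 5 a group). Col1a1 lies between 9.58 and 9.92 in 2-cycles mice against 8.82 to 9.30 in control mice, Snap25 between 7.23 and 7.76 against 8.33 to 8.39, and Tnc, Vim and Muc2 overlap.

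Nerve genes were lower, by less than 2-fold. Snap25, a protein of synaptic vesicle fusion, measured 8.39, 8.35, 8.34, 8.33 and 8.38 in control mice and 7.47, 7.76, 7.23, 7.65 and 7.60 in 2-cycles mice. The control mice were nearly equal and all above every 2-cycles mouse (-0.81 ± 0.12, adjusted p = 0.000198). Stmn2, a protein of growing axons, was at -0.83 ± 0.15 (adjusted p = 0.0016), also without overlap. With the set as a covariate Snap25 passed the adjusted p (-0.74, 0.00762) but Stmn2 did not (-0.65, 0.0594). Within D4 and D5 against controls Snap25 passed as well (-0.74, 0.0315), and Stmn2 again did not (-0.68, 0.0835). None of 18 enteric neuron and glia genes was called, but 7 were lower at the adjusted p alone, among them Syt1 (-0.65), Nefl (-0.57), Nos1 (-0.45) and Uchl1 (-0.38), while the glial genes Sox10 (-0.10), S100b (-0.08) and Gfap (-0.07) did not pass. Smooth muscle genes were all below 0 in 20 of 20 members, at a median of -0.29, with Pln the only one called. The list median was -0.16 and none was called with the set as a covariate. The mean of that list was 9.67 to 10.11 in control mice and 9.35 to 9.71 in 2-cycles mice. Leukocyte lists rose in the same pieces of tissue (the B cell list by a median of 1.41), and whether their share of the RNA bears on these lower values was not tested.

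Of 17 endothelial genes none was called. Cd34 (-0.49 ± 0.11, adjusted p = 0.00755) and Lyve1 (-0.66), a lymphatic marker, were lower at the adjusted p alone, while Eng (0.27 ± 0.12, adjusted p = 0.204) did not pass. Immediate early and stress genes held 0 calls of 15, with Jun at -0.01 ± 0.14 and Dusp1 at -0.03 ± 0.23. Clock genes held 0 of 14. Nr1d1 swung from 8.16 to 11.51 among the control mice alone, and Clock was lower by 0.32 ± 0.08 (adjusted p = 0.0231). The posterior Hox list held 0 of 15, with Hoxb13 at -0.21 ± 0.52, Hoxa9 at -0.01 ± 0.21 and Hoxd12 (-0.56) lower at the adjusted p alone.

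Lists for tissue that a piece of colon might carry gave no call. None of 23 squamous genes passed the adjusted p, with Perp at 0.07 and Sfn at 0.36, in the brightest probe set of each gene. A second, dimmer probe set of Sfn was at 0.47 with an adjusted p of 0.0243. Of 20 skeletal muscle genes 2 were higher at the adjusted p alone (Tpm3 at 0.26 and Neb at 0.24), with Acta1 at -0.08. The exocrine pancreas list held 0 of 12 (Clps at -0.02 and Cela1 at -0.34) and the small intestine list 0 of 14, with Rbp2 (-0.63) lower at the adjusted p alone, Slc5a1 at -0.17 and Apob at -0.62. Adipose genes held 0 of 9 (Plin4 at -0.44, Lipe at 0.00) and platelets and red cells 0 of 8 (Pf4 at 0.14, Ppbp at 0.22). The adipose list mean ran from 6.10 to 6.72 in control mice and from 5.85 to 6.39 in 2-cycles mice.

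Whether 2 cycles differ from 1 cycle and from 3 cycles was asked by direct comparison with these neighbouring groups. Between 2 cycles and 1 cycle 0 probe sets were called in either direction by limma, against 1155 higher and 901 lower at an unadjusted p under 0.05, and a fit of both groups alone called 0 higher and 2 lower. Between 2 and 3 cycles 0 were called as well, against 1843 higher and 2312 lower at the unadjusted p, and 0 in a fit of both groups alone. Without the fold threshold 8 probe sets were lower after 2 cycles than after 1, all annotated to the U1 small nuclear RNAs Rnu1b6, Rnu1b2 and Rnu1b1. These 8 carried only 2 distinct sets of values, at -0.80 ± 0.12 and -0.61 ± 0.11 (adjusted p = 0.00312 and 0.0245), so they count as 2 measurements. Against 3 cycles 1 probe set, of Eif3j2 and Eif3j1, was higher by 0.42 ± 0.07 (adjusted p = 0.0479). All 1-cycle arrays are in the low set and all 3-cycles arrays in the high set, so part of the spread within the 2-cycles group lies along the same division.

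The 322 probe sets higher than in control mice had a median difference of 0.08 to the 1-cycle mice, where the smallest adjusted p was 0.200, and of 0.08 to the 3-cycles mice, where it was 0.301. The 44 lower probe sets had a median difference of -0.34 to the 1-cycle mice, with 9 above 0 and a smallest adjusted p of 0.714, and of 0.18 to the 3-cycles mice, with 28 above 0 and a smallest adjusted p of 0.186. Both sets were chosen by the same 2-cycles arrays against control. A lean in the chosen direction would thus partly follow from the choice. Reg3b averaged 8.25 ± 0.88 (SD, n = 5) after 2 cycles, 11.04 ± 1.09 after 1 cycle and 9.44 ± 0.84 after 3. Its difference to 1 cycle was -2.79, with a 95% interval from -4.42 to -1.17 before adjustment. Reg3g averaged 8.63 ± 0.83, 10.54 ± 0.93 and 9.36 ± 0.60 in the same order, a difference of -1.92 (-3.41 to -0.42) to 1 cycle. The adjusted p was 0.650 for Reg3b and 0.782 for Reg3g, so neither difference passed. Cxcl9 was at -1.03 (-2.04 to -0.02) and Ido1 at -1.07 (-2.05 to -0.09) against 1 cycle, with adjusted p of 0.859 and 0.848. These genes, and those falls given below with intervals that exclude 0, were chosen after their values were seen, and all intervals are unadjusted.

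Intervals of lymphoid and class II genes against 1 cycle included 0. Cd79b differed by 0.07 (-0.66 to 0.81), Jchain by 0.20 (-0.26 to 0.67) and H2-Ab1 by 0.02 (-0.56 to 0.60). Against 3 cycles Ms4a1 was at 0.79 (-0.17 to 1.74), Cxcl13 at 0.66 (-0.01 to 1.33) and Il1b at 0.91 (-0.08 to 1.91), all with intervals that include 0. Among the falls, Pln stood at 7.07 ± 0.46 after 2 cycles, against 8.10 ± 0.27 after 1 and 7.86 ± 0.81 after 3, while Pcp4 was at -0.97 (-1.72 to -0.21) and Vsig2 at -0.85 (-1.53 to -0.16) against 1 cycle. None of the 3 passed against 1 cycle (adjusted p 0.782 to 0.791). Trpm6 was at 0.69 (0.15 to 1.24) against 3 cycles, with an adjusted p of 0.309. Col1a1 differed by 0.16 (-0.07 to 0.39) from 1 cycle and by 0.05 (-0.18 to 0.28) from 3 cycles.

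**Figure D5:**
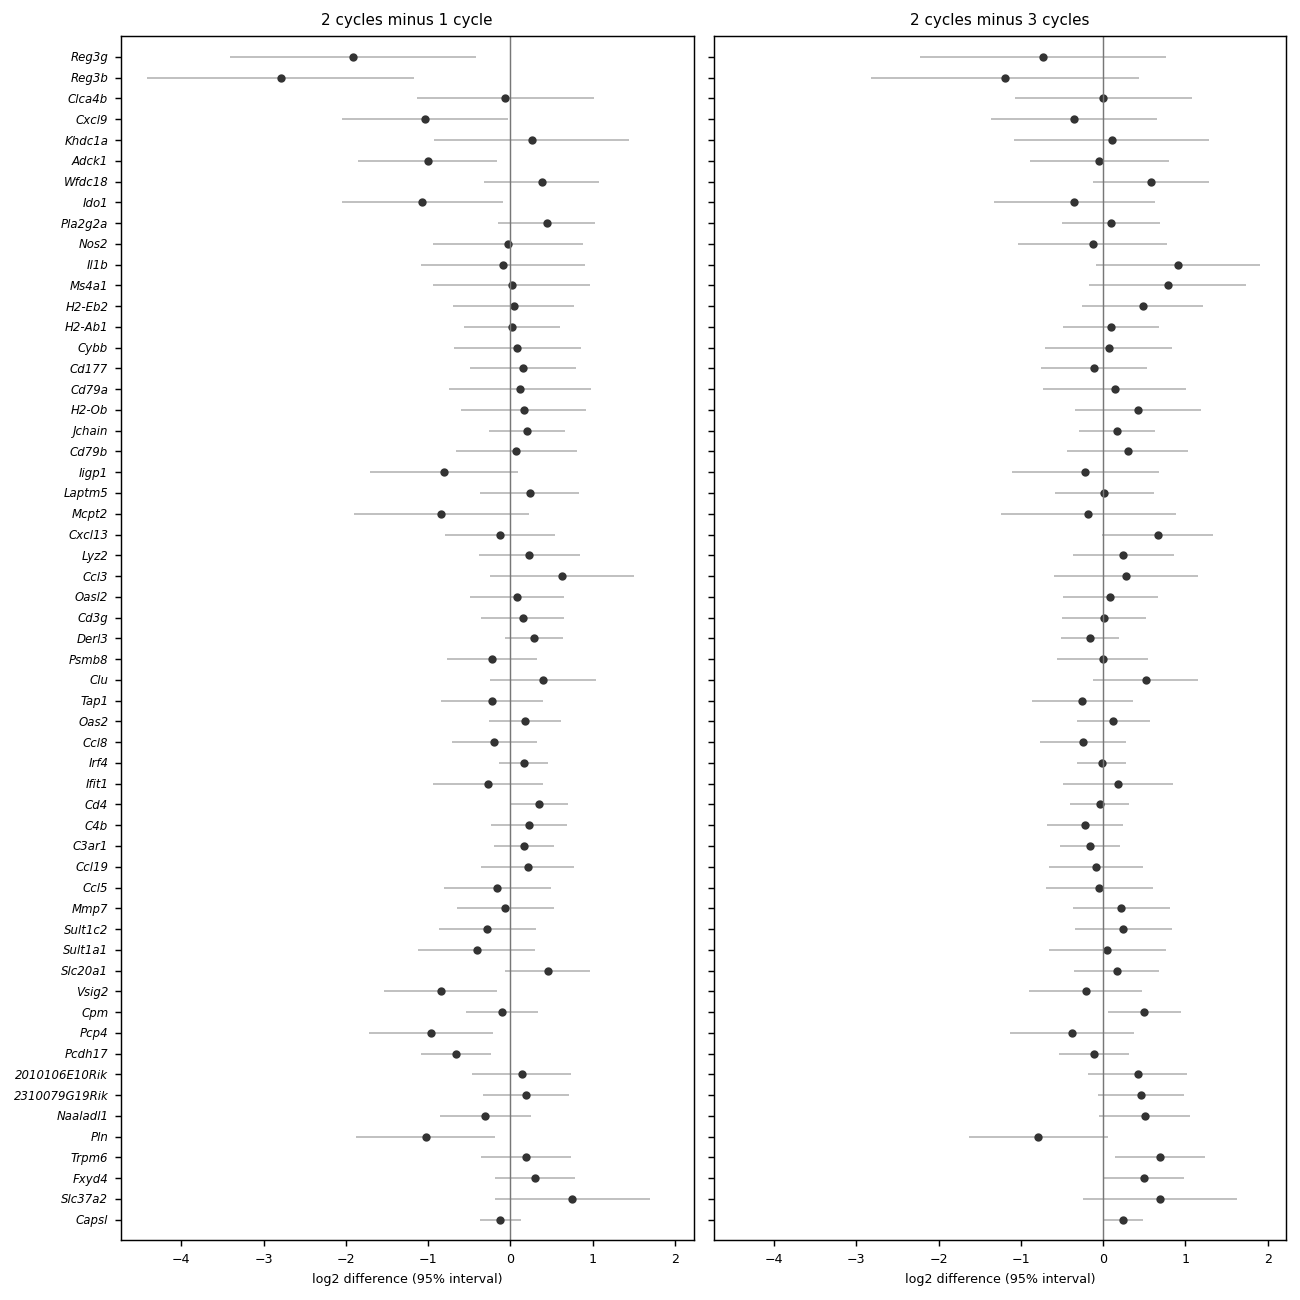
Log2 difference (x axis, points, with 95% intervals before adjustment) of the 57 called genes (rows) between 2 cycles and 1 cycle (left) and between 2 cycles and 3 cycles (right). Reg3b at -2.79 and Reg3g at -1.92 lie farthest from 0 on the left, and no gene passed the adjusted p in either panel.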

How the data were processed

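Colon RNA of single mice was hybridised to Affymetrix Mouse Gene 1.0 ST arrays. The authors normalized the arrays with RMA in R 2.12.2 (per the labels) and deposited log2 expression values, 1 per probe set and array. RMA quantile-normalizes, so equal overall distributions are imposed and low values are compressed. The files carry no signal over background, and the number of arrays sets the precision. Samples were grouped by label, 0 columns were left out and 0 pairs of arrays were identical. Nothing in the sources used here says that the mice were littermates or cage mates.

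All 6 groups were fitted together with limma 3.58.1 in R 4.3.3, checked on simulated data, with 1 mean per group and Benjamini-Hochberg adjustment over 35511 probe sets. Errors are SE of the fit unless called SD. Annotation gave 1 symbol to 21789 probe sets, several to 1621 and none to 12101. Of 757 list entries 695 matched, and a gene with several probe sets was represented by the brightest. Genes named are the 12 largest non-overlapping rises and falls, up to 3 called members of each of the 39 lists (or the 2 brightest where none was called), and the genes of the stained proteins; further list members are given as examples chosen after their values were seen. Members and lists were chosen with earlier results of these data known. Promoters are from RefSeq (GRCm38.p6), 250 bases before the start.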

Additional observations from a re-analysis of the deposited data

Results flagged for a closer look

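In 8 of the 194 groups of 5 values examined, 1 mouse stood apart from the other 4 by Dixon's criterion, and chance alone flags about 1 in 20 such groups. Among the control mice, the probe set annotated to Adck1 was 5.67 in L2 against 4.41 to 4.75 in the others, and Mki67 was 9.25 (9.249) in A2 against 9.43 to 9.48. Among the 2-cycles mice, Clu was 10.32 in D4 against 8.61 to 9.01, Sult1a1 was 7.38 (7.383) in D4 against 8.34 to 8.48, and Ccl8 was 6.72 (6.722) in E2 against 5.98 to 6.15. Il1b was 6.98 in E3 against 7.50 to 7.61, Jun was 9.24 (9.236) in E3 against 9.36 to 9.41, and Agr2 was 12.81 in E4 against 12.63 to 12.65.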

How the results depend on the processing

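No paired analysis was possible because the replicate names differ in every group. For 2 cycles against control, the counts of probe sets higher and lower were 322 and 44, 125 and 22 within the low set of arrays, and 216 and 12 with the set as a covariate. Without a fold threshold they were 1092 and 893, and at a fold above 1.5 they were 629 and 224. Leaving out 1 array at a time gave 282 to 362 higher and 22 to 59 lower, the 22 without E2. Other normalizations, priors, weights, filters, the letter as a random block (correlation -0.07) and the fit of both groups alone gave 293 to 352 higher and 36 to 57 lower. Against 1 cycle, probe sets lower numbered 2 in the fit of both groups alone and with array weights, 1 without dim probe sets or with the letter as a block, and 8 without a fold threshold or at 1.5; leaving out 1 array gave 0 to 1 higher (1 without D5) and 0 to 1 lower (1 without D5 or without E2). Against 3 cycles, 1 was higher with array weights or without a fold threshold, and leaving out 1 array gave 0. The cause was not tested. Of the 57 named genes called, 21 kept the call under all 20 settings, 35 lost it within the low set (2 against 5 mice) and 18 with the set as a covariate, and none changed direction.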
